A study of Mus musculus with 9 samples.

Results

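The laminin and integrin genes of the mouse are described here in mammary tumour cells that had been treated with a Wnt inhibitor or served as controls. Every non-control probe whose gene name began with Itga or Itgb, or with Lama, Lamb or Lamc and a digit, was taken, which gave 43 genes and 92 probes out of 27576 names and 41174 probes on the array. Of the 43 genes, 37 encode a chain of a laminin (11 genes) or of an integrin (26 genes). The other 6 carry an integrin in their name but encode no chain: Itgb1bp1, Itgb1bp2, Nmrk2 (named Itgb1bp3 on the array), Itgb3bp, Eif6 (named Itgb4bp) and Itgbl1. For 40 genes (71 probes) at least 4 arrays had a Cy5 signal well above background, and Itga10, Itgb2l and Itgb1bp2 had none.

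The comparison is between 5 Fzd8-CRD arrays and 4 control arrays. Fzd8-CRD is the soluble cysteine-rich domain of Frizzled 8, which binds Wnt proteins. All 9 samples were freshly isolated cells of MMTV Wnt-1 and MMTV-Her2 tumours, whose transgenes place Wnt-1, a Wnt ligand, or Her2, a receptor tyrosine kinase, under the promoter of the mouse mammary tumour virus. In both groups only cells without green fluorescent protein were sorted. Both tumour models are named for every array, so they could not be separated. The age and strain of the mice are not given, and neither is what the control cells received, because the treatment field names the inhibitor for all 9 arrays. Each array compared the sample, in Cy5, with a pooled reference RNA, in Cy3. The labels name that reference in 3 ways, as universal RNA of mouse or of human and as pooled RNA of strains, and do not say whether it was the same for both groups. The values below are log2 ratios of Cy5 to Cy3, and differences are Fzd8-CRD minus control each with the fitted standard error (SE). The design text calls the arrays biological replicates, and nothing says which came from separate animals.

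Laminins are cross-shaped proteins of the basement membrane, each built from an alpha, a beta and a gamma chain. Integrins are cell surface receptors built from an alpha and a beta chain, and they bind laminins, collagens, proteins with an RGD motif, or counter-receptors on other cells. In the mammary gland, basal cells rest on a laminin-rich basement membrane and hold on to it through integrins that contain the alpha 3, alpha 6, beta 1 or beta 4 chain.

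The control arrays shared 1 slide and 1 scan day. The Fzd8-CRD arrays were spread over 4 further slides, scanned 367 or 378 days later, so slide, scan day and group cannot be told apart. The share of probes with a Cy5 signal well above background was 52.4% to 60.0% with Fzd8-CRD and 63.8% to 70.8% in the controls. In the Cy3 reference these shares were 58.7% to 65.7% and 71.8% to 74.9%. Control replicate 2 correlated with the other control arrays at 0.721 to 0.737, while every Fzd8-CRD pair correlated at 0.892 or more. At least 9 of 10 basal markers and 9 of 10 luminal epithelial markers were well above background on every array. Markers of endothelial cells, pericytes, fibroblasts, lymphocytes and macrophages were detected too, and the groups differed in several of these lists. Their values are given beside some of the genes below. In such mixed samples, fewer cells of a type and less RNA per cell cannot be told apart.

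Of the 40 measured genes, 5 passed the threshold of an adjusted p of 0.05 in limma's test: Itgb3, Lama3, Lamb1 and Itga6 were higher and Itgb6 was lower in Fzd8-CRD cells. Over all 18265 genes tested, 14.3% passed, 6.59% higher and 7.75% lower. The count of the laminin and integrin genes lay close to that background and is no result about the family as a whole. Their median difference was -0.14, and that of all genes was -0.07. The laminin chains (2 of 11 higher, 0 lower) had a median of 0.49, and the integrin chains (2 of 24 higher, 1 lower) had a median of -0.25. The groups did not overlap for 4 of the 40 genes, Itgb3, Lama3 and Lamb1 among them, against 19.6% of all genes.

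**Figure D1:**
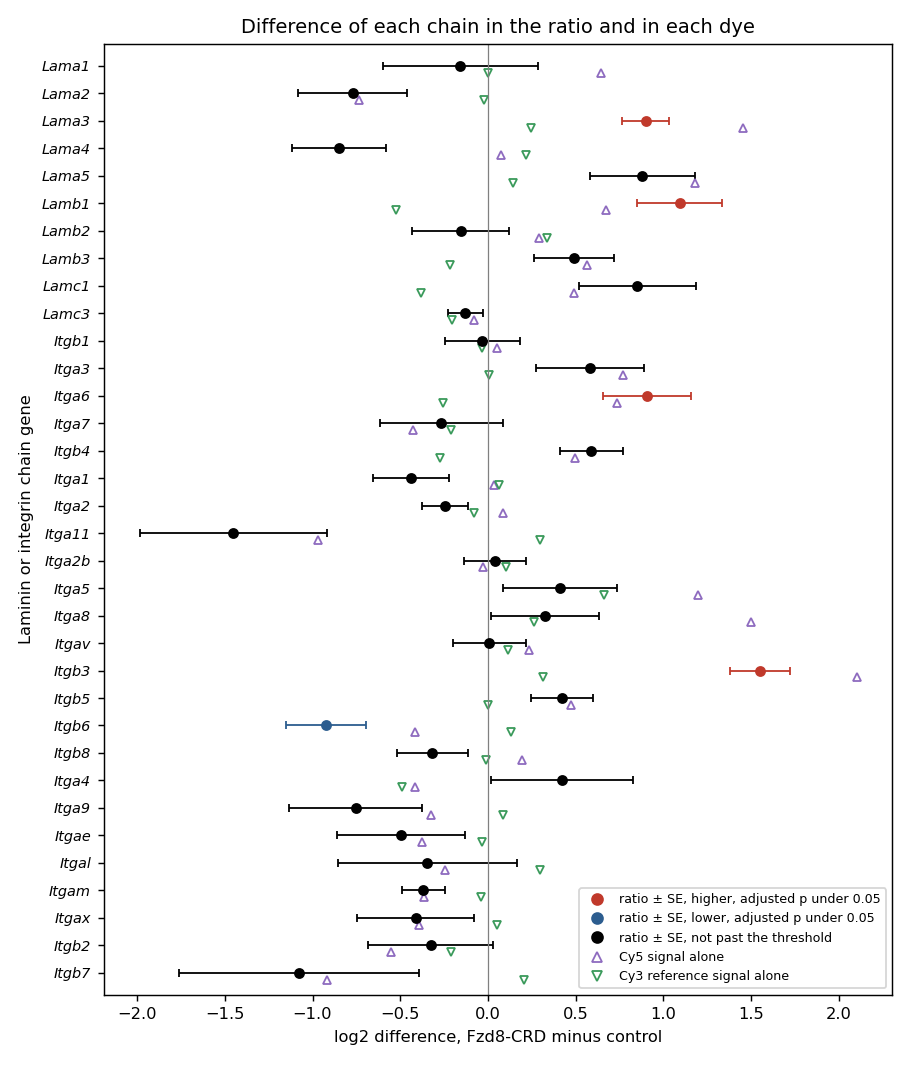
The difference between groups is plotted for 34 laminin and integrin chains, as the log2 ratio with its SE (circles, coloured where the adjusted p was under 0.05) and for each dye alone (triangles). Itgb3 lies farthest to the right in both the ratio (1.55) and the Cy5 signal (2.10), and the Cy3 reference signal of the chains spans -0.52 to 0.66.

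Among the laminin alpha chains, Lama3, the alpha chain of the epithelial laminin that anchors hemidesmosomes, was higher in Fzd8-CRD cells. Its log2 ratios were 4.17, 4.04, 4.13, 4.56 and 4.03 on the Fzd8-CRD arrays and 3.32, 3.16, 3.33 and 3.35 on the control arrays. Every Fzd8-CRD array lay above every control array. The difference was 0.90 (SE 0.13, adjusted p = 0.0055, limma), or 1.86-fold. In the Cy5 signal alone it was 1.45 (adjusted p = 0.049), and in the Cy3 reference it was 0.25 (adjusted p = 0.505). That reference signal was uneven, from 6.90 to 8.51 over the arrays, and both dyes were lowest on control replicate 2. In Cy5 the groups overlapped, with Fzd8-CRD replicate 2 at 10.94 and control replicates 3 and 4 at 11.07 and 11.12. A second, dimmer Lama3 probe differed by 0.01 (SE 0.10).

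Lamb3, the beta chain that pairs with the Lama3 product in that laminin, did not pass the test. Lamb3 ratios were 3.95, 3.62, 2.91, 4.02 and 3.60 with Fzd8-CRD and 3.04, 3.36, 3.27 and 2.85 in the controls, with the third Fzd8-CRD array among the controls. Its difference was 0.49 (SE 0.23, adjusted p = 0.172). Whether Lama3 and Lamb3 differ in their response was not tested.

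Lamb1 encodes the beta chain of the widespread laminins of developing and adult basement membranes, and it was the other laminin gene past the threshold. Its ratios were 1.60, 1.52, 1.01, 1.30 and 1.92 with Fzd8-CRD and -0.30, 0.46, 0.66 and 0.68 in the controls. The groups did not overlap, and control replicate 1 was the lowest array. The difference was 1.09 (SE 0.24, adjusted p = 0.019), or 2.13-fold. Cy5 alone differed by less, 0.67 (adjusted p = 0.080), and the reference was lower by 0.52 on the Fzd8-CRD arrays, so part of the ratio difference lies in Cy3. Without control replicate 1 the Lamb1 difference was 0.87 (adjusted p = 0.027).

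Lamc1, the gamma chain that joins Lamb1 products in most laminins, had a similar spread of arrays. It measured 1.02, 0.86, 0.12, 1.10 and 1.61 with Fzd8-CRD and -0.76, 0.14, 0.47 and 0.52 in the controls, and the third Fzd8-CRD array overlapped the controls. The difference of 0.85 (SE 0.33) did not pass (adjusted p = 0.114). Lama5, the alpha chain of most adult epithelial basement membranes, measured 1.85, 1.61, 1.95, 2.14 and 2.19 with Fzd8-CRD and 1.83, 0.15, 1.36 and 0.93 in the controls. Its control arrays were widely spread, with replicate 2 lowest, and the difference of 0.88 (SE 0.30) did not pass (adjusted p = 0.078). In the Cy5 signal alone Lama5 did pass, with a difference of 1.18 (adjusted p = 0.048). Without control replicate 1 the Lama5 ratio difference was 1.14 (adjusted p = 0.029), and without control replicate 2 it was 0.58 (adjusted p = 0.098).

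**Figure D2:**
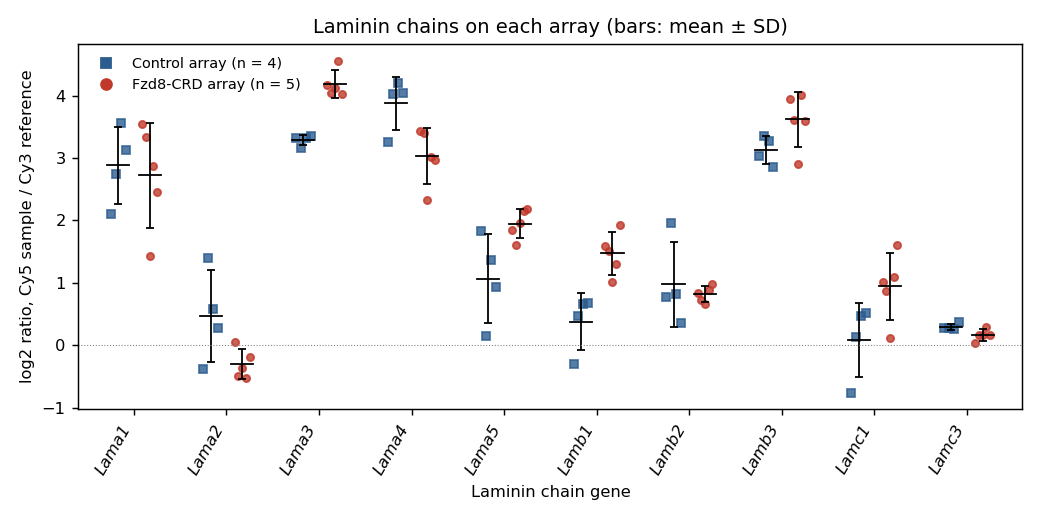
Log2 ratios of 10 laminin chains are shown for each array, with the mean ± SD of each group. Lama3 and Lamb1 have Fzd8-CRD arrays that all lie above the controls, and the Lama4 and Lama2 means are lower in the Fzd8-CRD group.

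Lama4, the alpha chain of blood vessel basement membranes, and Lama2, that of muscle and stroma, had negative differences. Lama4 ratios were 3.43, 3.40, 2.32, 3.02 and 2.97 with Fzd8-CRD and 3.25, 4.02, 4.2 and 4.04 in the controls. Control replicate 1 lay among the Fzd8-CRD arrays, and the difference of -0.85 (SE 0.27) did not pass (adjusted p = 0.062). Without that array it was -1.06 (adjusted p = 0.029). The Cy5 signal of Lama4 gave 0.07 (adjusted p = 0.843), against the sign of the ratio. Lama4 was singled out after its values were seen, because all 10 endothelial markers fell. The median ratio of those markers, each relative to its own mean over the 9 arrays, was -1.76 to 0.10 on the Fzd8-CRD arrays. On the controls it was 0.79 to 1.47, with 0.79 on control replicate 1. Of 6 pericyte markers 3 fell and 0 rose. Their median on that scale was -1.01 to 0.19 with Fzd8-CRD, -0.04 on control replicate 1 and 1.03 to 1.27 on the other controls. The part of either list in the Lama4 values was not tested.

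Lama1, Lamb2 and Lamc3 did not pass the test, with differences of -0.16, -0.16 and -0.13.

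Of the receptors for laminin, Itga6, the alpha 6 chain of basal mammary cells, was higher in Fzd8-CRD cells. It measured 2.57, 2.62, 1.97, 2.93 and 3.03 with Fzd8-CRD and 1.32, 1.43, 1.96 and 2.16 in the controls. The third Fzd8-CRD array lay among the controls, and the other 4 were above all of them. The difference was 0.91 (SE 0.25, adjusted p = 0.041), or 1.88-fold. In Cy5 alone the difference was 0.74 (adjusted p = 0.056), and in Cy3 it was -0.25. The call was lost without any 1 of 7 arrays (Fzd8-CRD replicates 1, 2, 4 and 5 and control replicates 1, 2 and 3), with adjusted p between 0.068 and 0.089. Over all arrays left out in turn the Itga6 difference stayed between 0.78 and 1.07.

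Itgb4, the beta 4 chain that pairs only with alpha 6 and forms the core of the hemidesmosome, measured 3.83, 3.90, 3.49, 4.16 and 3.94 with Fzd8-CRD and 2.99, 3.02, 3.59 and 3.49 in the controls. The groups overlapped at 1 Fzd8-CRD array, and the difference of 0.59 (SE 0.18) did not pass (adjusted p = 0.057). Itga3, the alpha 3 chain of another laminin receptor, differed by 0.58 (SE 0.31, adjusted p = 0.220), with 1.16, 1.14, 1.67, 2.58 and 1.97 against 1.06, 1.63, 0.96 and 0.82. Itga7, the alpha 7 chain of muscle, differed by -0.26 (adjusted p = 0.622). Of the 4 chains of this class 1 passed, and their median difference was 0.59.

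Itgb1, the beta chain shared by most of these receptors, did not pass the test. It measured 0.05, -0.05, 0.15, 0.63 and 0.42 with Fzd8-CRD and 0.27, -0.27, 0.40 and 0.68 in the controls. The arrays of both groups were interleaved, with a difference of -0.03 (SE 0.21, adjusted p = 0.934). That sign depended on the scaling: with median centring the difference was 0.10. A second, dimmer Itgb1 probe differed by -0.77 (SE 0.29, adjusted p = 0.101), and the mean of the gene's probes by -0.40 (adjusted p = 0.192).

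Basal cell markers are given beside these laminin and laminin-receptor genes. Of the 10 basal and myoepithelial markers, 3 rose (Krt5, a basal keratin, by 0.80, the smooth muscle gene Tagln by 1.62, and Cnn1 by 1.03) and 0 fell. Krt5 differed by 0.07 in Cy5 alone (adjusted p = 0.845) and by -0.80 in the reference, whereas Tagln differed by 1.75 in Cy5 alone (adjusted p = 0.0053). Their median ratio, relative to each gene's mean, was -0.25 to 0.64 on the Fzd8-CRD arrays and -0.89 to -0.21 on the controls. Their summed Cy5 signal was 18.1 to 19.0 on the log2 scale with Fzd8-CRD and 17.1 to 18.0 in the controls. The part of basal cell number in the Lama3, Lamb1 and Itga6 values was not tested.

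**Figure D3:**
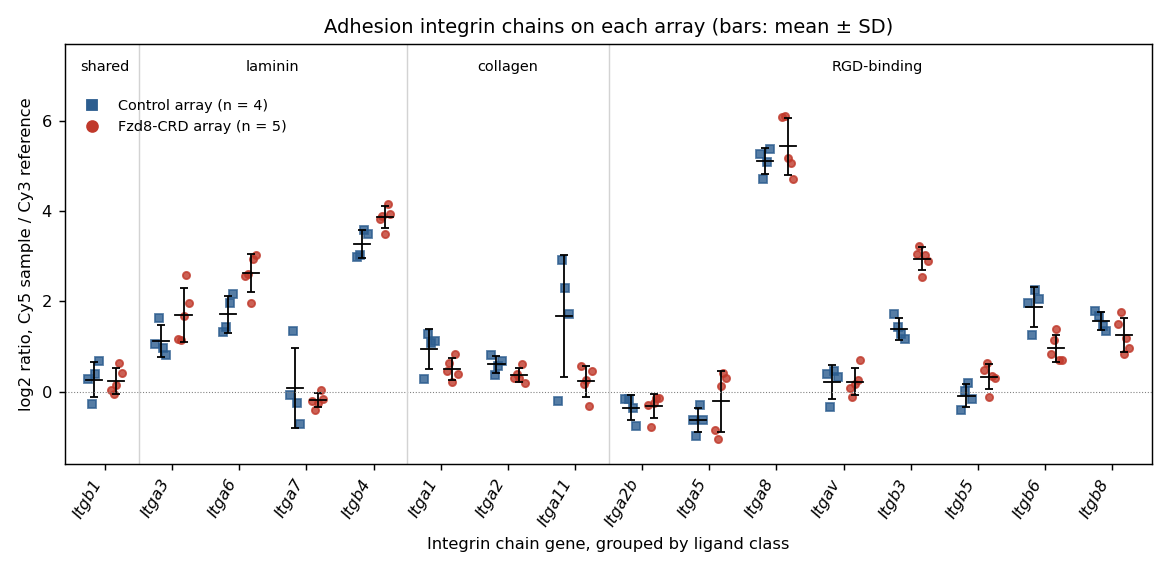
Log2 ratios of 16 adhesion integrin chains are shown for each array, grouped by the kind of ligand they bind, with the mean ± SD of each group. The Itgb3 groups are apart, Itgb6 is lower with Fzd8-CRD with 1 control array inside the Fzd8-CRD range, and the control arrays of Itga11 run from -0.21 to 2.91.

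The RGD-binding receptors held the largest rise of the measured members in the ratio as analysed here, and the only fall past the threshold. Itgb3 encodes the beta 3 chain, which pairs with alpha v on many cells and with alpha IIb on platelets. Its ratios were 3.06, 3.23, 2.53, 3.03 and 2.89 with Fzd8-CRD and 1.72, 1.43, 1.27 and 1.16 in the controls. All Fzd8-CRD arrays lay above all controls with a clear gap. The Itgb3 difference was 1.55 (SE 0.17, adjusted p = 0.0026), or 2.93-fold. Cy5 alone gave 2.10 (adjusted p = 0.00037) and the reference 0.32. The call held without each array in turn, with differences between 1.47 and 1.66.

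Neither alpha partner of Itgb3 passed the test. Itgav, the alpha v chain, differed by 0.01 (adjusted p = 0.981), and Itga2b, the platelet alpha IIb chain, by 0.04 (adjusted p = 0.892). Platelet markers gave little signal: 4 of 7 had a kept probe, their median difference was -0.25, and 1 of the 4, Treml1, rose (0.58). Treml1 was above background on only 2 Fzd8-CRD arrays, and its Cy5 signal alone differed by 0.11 (adjusted p = 0.449).

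Itgb6 encodes the epithelial beta 6 chain, which with alpha v activates latent TGF-beta. It was lower in Fzd8-CRD cells, with 0.83, 1.15, 1.39, 0.71 and 0.71 against 1.96, 1.25, 2.26 and 2.05 in the controls. Control replicate 2 lay inside the Fzd8-CRD range. The difference was -0.92 (SE 0.23, adjusted p = 0.028), or 1.89-fold lower. In Cy5 alone it was -0.41 (adjusted p = 0.198). The call was lost without any 1 of 6 arrays (Fzd8-CRD replicates 1, 4 and 5 and control replicates 1, 3 and 4), with adjusted p between 0.055 and 0.077. Without control replicate 2 it was -1.13 (adjusted p = 0.0076). Of the 10 luminal epithelial markers 2 fell (Prom1 by 1.68 and Cldn4 by 1.30 on the log2 scale) and 0 rose, with a median difference of -0.66. Their median ratio, relative to each gene's mean, was -1.08 to 0.31 on the Fzd8-CRD arrays and 0.11 to 0.54 on the controls, and their part in the Itgb6 values was not tested.

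Itga8, the alpha 8 chain, is a case where the ratio and the Cy5 signal parted. Its ratios, 6.09, 6.11, 5.18, 5.07 and 4.72 with Fzd8-CRD and 5.26, 4.71, 5.08 and 5.38 in the controls, overlapped and differed by 0.33 (SE 0.31, adjusted p = 0.482). The Cy5 signal alone differed by 1.50 (adjusted p = 0.0028), and the reference rose too, by 0.26. The reference signal of Itga8 was dim, at 6.41 to 6.93 on the log2 scale. The Itga8 ratio did pass as higher without background correction (0.96, adjusted p = 0.0094), by the ratio of the scanner software (0.88, adjusted p = 0.016) and with the deposited table (0.88, adjusted p = 0.017). Itga8 was singled out after its values were seen. The remaining RGD-binding chains, Itga5, Itgb5 and Itgb8, differed by 0.41, 0.42 and -0.32 and did not pass the test.

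Several genes had more than 1 probe, which gave an internal check of 21 genes with at least 2 kept probes. For 8 of the 21 the probes differed in sign. Over all kept probes tested on their own, 14.6% passed, and of the 71 laminin and integrin probes 5 were higher and 4 were lower, from 7 genes. The sequences of the Itgb3, Itga6, Itgb6 and Lamb1 probes are printed because the size of the changes rests on them. Each is the first 30 of 60 bases, read 5′ to 3′ as the probe is printed on the array, with its position in the mm8 mouse genome as the scanner files give it. No mm8 annotation was used, so exons and introns are not stated.
Itgb3, chr11:104486448-104486507, plus strand: ccacagcaacatcagagtctttgtccattt
Itgb3, chr11:104483266-104483336, plus strand: tgggactctctgccattatgtttacagagg
Itga6, chr2:71658755-71658814, plus strand: tctggagtatcttggagcctagcacactgg
Itga6, chr2:71656976-71657035, plus strand: gacacccagtatggacctacagtttcaact
Itga6, chr2:71655691-71655750, plus strand: attctattcctgttgccgtcacaaaataag
Itgb6, chr2:60399318-60399377, minus strand: ttgtgttattgctgaaatgagatgttagga
Itgb6, chr2:60401414-60406029, minus strand: aaggaagttgctaaatttgaagcagaacgc
Lamb1, chr12:31913875-31915221, plus strand: aaagactctagatggcgaacttgatgaaaa

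The first Itgb3 probe is the brighter one and gave the difference of 1.55. The second gave 0.64 (SE 0.21, adjusted p = 0.067), with 1.45, 1.75, 2.15, 1.25 and 1.23 against 0.99, 0.60, 0.91 and 1.19. Both probes had groups that did not overlap, and they disagreed on the size of the rise.

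The 3 Itga6 probes, in the order printed, differed by 0.91, 0.74 and 0.50. The second was the steadiest, with 2.60, 2.52, 2.40, 2.99 and 2.54 against 1.82, 2.05, 1.80 and 1.82 and no overlap (SE 0.14, adjusted p = 0.011). The third was the dimmest and did not pass (SE 0.47, adjusted p = 0.482).

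The second Itgb6 probe gave 0.50, 0.42, 0.11, 0.42 and 0.08 with Fzd8-CRD and 1.56, 1.45, 1.61 and 1.16 in the controls. Its groups did not overlap, and its difference of -1.14 (SE 0.14, adjusted p = 0.0032) was larger than that of the brighter probe. The positions of this probe, of the second Itgb3 probe and of the Lamb1 probe span more than 60 bases. How each was aligned there was not examined.

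The probes of Itgb8, the beta 8 chain, another activator of latent TGF-beta with alpha v, disagreed in size. The brightest differed by -0.32, and the dimmest by -0.97 (SE 0.17, adjusted p = 0.0091). The remaining one differed by -1.06 (SE 0.36, adjusted p = 0.078). One of the 3 kept Lama4 probes passed on its own, at -0.94 (SE 0.24, adjusted p = 0.029), and the other two gave -0.85 and -0.89, the latter with 1 array missing from the fit.

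**Figure D4:**
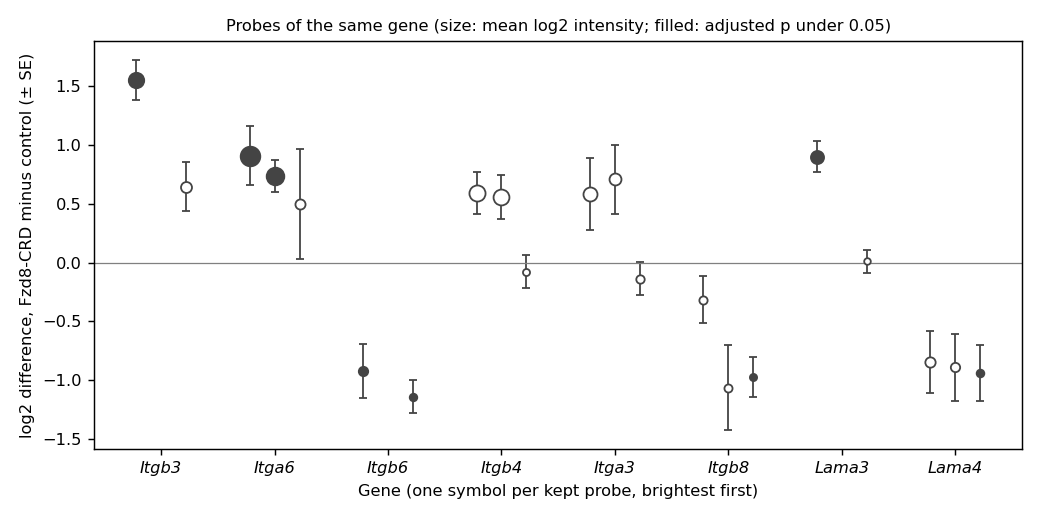
Each kept probe of 8 genes is shown with its difference ± SE, the brightest probe of a gene first, with symbol size following mean log2 intensity and filled symbols marking an adjusted p under 0.05. The Itga6, Itgb6 and Lama4 probes of a gene share a sign, while Itgb4 and Itga3 each have a dim probe below 0 beside brighter ones above it.

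None of the collagen-binding alpha chains passed the test in 3 measured genes of 4. Itga1 differed by -0.44 and Itga2 by -0.24. Itga11, the alpha 11 chain of collagen-producing fibroblasts, measured 0.58, 0.16, 0.26, -0.32 and 0.46 with Fzd8-CRD and -0.21, 2.91, 2.29 and 1.72 in the controls. Control replicate 1 was among the lowest arrays and the other 3 controls were above every Fzd8-CRD array. The difference of -1.45 (SE 0.54) did not pass (adjusted p = 0.097), and without control replicate 1 it was -2.08 (adjusted p = 0.0069).

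Itgbl1, a secreted protein with integrin-like repeats, showed the same pattern, with -0.17 to 0.62 on the Fzd8-CRD arrays and 0.05, 3.24, 2.33 and 1.67 in the controls. Its difference was -1.67 (SE 0.53, adjusted p = 0.063), and without control replicate 1 it was -2.26 (adjusted p = 0.0076). The median of 8 fibroblast markers, relative to each gene's mean, was -1.03 on control replicate 1 and 2.25, 1.17 and 0.67 on control replicates 2, 3 and 4. On the Fzd8-CRD arrays it was -1.21 to 0.36. Of these markers 2 fell (Thy1 and Fap) and 0 rose, and their part in the Itga11 and Itgbl1 values was not tested. Both genes were singled out after their values were seen.

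Without control replicate 1, Itga1, Itga11, Itgbl1, Lama2 and Lama4 all passed as lower and Itgb6 did not, so that 5 genes were lower in place of 1, against 7.52% of all genes lower in that fit.

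The integrins of white blood cells passed the test in 0 of 6 measured genes. Itgae, Itgal, Itgax, Itgb2 and Itgb7 differed by -0.49, -0.34, -0.41, -0.33 and -1.08. No difference is read for Itgam, which no Fzd8-CRD array had above background. Itgb2 pairs with Itgal, Itgam and Itgax on leukocytes, and Itgae pairs with Itgb7 on lymphocytes of epithelia. Itgam aside, which passed the filter through the controls alone, the measured chains were each highest on control replicate 2. On that array Itgb7 measured 0.53, and on the other 8 it measured -3.46 to -2.80. Itgal measured 1.22 there and -1.56 to -0.73 on the others, and Itgb2 measured 0.39 against -1.58 to -1.05.

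Itgax measured 1.42 on control replicate 2 against -0.44 to 0.20 on the other arrays, and Itgae 1.99 against -0.02 to 0.64. The median of 9 lymphocyte markers was 1.94 on that array, -0.19 to -0.06 on the other controls and -0.35 to -0.07 on the Fzd8-CRD arrays. Between 5 and 6 of these markers were above background on each Fzd8-CRD array and 9 on each control array, and their part in the integrin values was not tested. Myeloid and red cell markers were also highest on that array. Its median was 1.39 for 8 macrophage markers (-0.55 to 0.14 on the other arrays) and 1.19 for 7 neutrophil markers (-0.52 to 0.54). For 4 erythrocyte markers it was 5.12, against 0.68 to 1.54 on the other controls and -1.95 to -0.82 on the Fzd8-CRD arrays. Of these 4 markers 3 fell past the threshold and 0 rose. The part of these lists was not tested either. Without control replicate 2 the difference of Itgb7 moved from -1.08 to -0.19 and that of Itgal from -0.34 to 0.31, neither past the threshold.

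Itgam, Itga4 and Nmrk2 were above background on all 4 controls and on none (0 of 5) of the treated arrays. They passed the filter through the controls alone, so no difference between the groups is read from them.

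**Figure D5:**
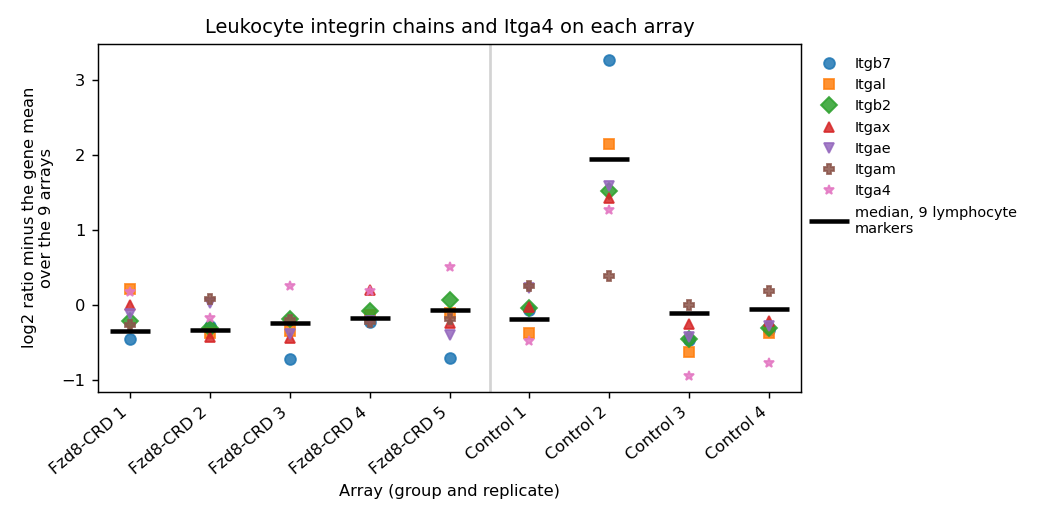
The ratio of 6 leukocyte integrin chains and Itga4 is plotted for each array relative to the gene's mean over the 9 arrays, with black bars for the median of 9 lymphocyte markers. Control replicate 2 stands apart with a marker median of 1.94, and Itgae, Itgal, Itgax, Itgb2 and Itgb7 are at their highest there. Itgam and Itga4 are not read, because no Fzd8-CRD array had them above background.

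The reference channel differed between the groups for many of these genes. With Cy3 alone, 18 of 35 chains passed an adjusted p of 0.05, against 59% of all genes, and the differences ran from -0.52 (Lamb1) to 0.66 (Itga5) among the 34 plotted. With Cy5 alone, 4 genes rose (Itgb3, Lama3, Lama5 and Itga8) and 0 fell. Over all genes 18.9% passed in Cy5 alone, and 10.1% rose. Ratio and Cy5 differences had opposite signs for 10 of the 35 chains. Reference RNA, slide and scan day cannot be told apart in this channel.

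Other genes of the adhesion system were taken from lists of partners. Their counts, and those of the marker lists above, stand beside 6.59% higher and 7.75% lower over all genes. No list was tested as a set. Among 11 measured basement membrane and dystroglycan genes 2 rose, the type IV collagen chains Col4a1 (1.19) and Col4a6 (0.83), and 0 fell. Of 16 other integrin ligands, 4 fell and 0 rose: Icam2 (-1.70) and Vcam1 (-1.26), adhesion molecules of blood vessels, Vtn (-0.80), which encodes vitronectin, and Jam3 (-0.70), a junction molecule. The endothelial markers fell beside them, as given above, and their part was not tested. Vtn was above background on 4 control arrays but on only 1 Fzd8-CRD array, and its Cy5 signal alone differed by -0.41 (adjusted p = 0.110). Of 24 integrin adaptors and signalling genes, 3 rose and 1 fell. Those that rose were Tns1 (1.33), an actin-binding adaptor, Zyx (0.73), which encodes zyxin of focal adhesions, and Apbb1ip (1.37), which links Rap1 to talin, and Rap1b itself fell (-0.68). Apbb1ip was above background on 4 control arrays but on only 2 Fzd8-CRD arrays. Its Cy5 signal alone differed by -0.13, and its Cy3 reference by -0.94. Of 8 hemidesmosome and tetraspanin partners 1 fell, the tetraspanin Cd82 (-1.05). The medians of these 4 lists were 0.35, -0.41, 0.22 and 0.14.

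The 250 bases before each RefSeq start (build GRCm38.p6) were searched on both strands for the TCF/LEF letters CTTTGAA, or the same with AT, TA or TT as the last pair, the motif of the factors that act at the end of the Wnt pathway. Of the 43 genes, 28 matched the table, with 31 windows. Of those windows 3 held the letters (Itga1, Itga10 and Itgb1bp1), against 14.8% of 32851 windows of all genes. The AP-1 letters TGACTCA, on either strand and not part of that motif, were in 1 window (Itgax) against 4.46% of all. Of the 5 genes past the threshold the table holds Lamb1 and Itgb6, which had neither motif, so these counts do not cover the other 3.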

How the data were processed

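RNA of 5 Fzd8-CRD and 4 control samples was measured on 2-colour Agilent arrays. Per the file headers, version 9.5.3.1 of Agilent Feature Extraction wrote the linear spot intensity values of each dye and a log10 ratio. The deposited table of the series holds the authors' linear ratio. On all arrays its log2 matched the scanner ratio (correlation of 1), and column medians were 0.833 to 0.954. Groups came from the treatment labels, and replicate numbers followed accession order. The file headers give genome build mm7 for the control arrays and mm8 for the Fzd8-CRD arrays, and the probes were the same on all arrays.

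Background was corrected by normexp (offset 50) in limma 3.58.1 (R 4.3.3), followed by loess within arrays, with control spots given no weight and 1229 outlier spots left out. Probes were kept if at least 4 arrays had them well above background in Cy5 (26823 of 41174), and the brightest kept probe stood for a gene (18265 genes). Probes were named by accession (23374), current symbol (6733), synonym (2914) or the file's name (8153). No spot was saturated, and precision is limited by the number of arrays. The linear model of limma was fitted to all genes, with Benjamini-Hochberg adjustment over all genes. Differences of dim genes are understated by the offset. Cy5 and Cy3 were each tested separately too, quantile normalized. The fit was tested on simulated data.

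The members and gene lists were chosen with earlier results of these data known. By rule, values per array are given for members past the threshold and for Itgb1, Itga6, Itgb4, Itga3, Lama5 and Lamb3, other members are given by ranges and counts, up to 4 genes past the threshold are named per partner list and up to 2 per marker list. Lamc1, Lama4, Itga8, Itga11, Itgbl1, Itgb7 and other leukocyte chains, and the marker Cnn1, were added once their values were known. The alternatives were background correction, scaling, dyes, probe filters and summaries, weights, slide as a block and each array left out. One gene is counted but not reported here. There were 0 columns of other series.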

Additional observations from a re-analysis of the deposited data

Results flagged for a closer look

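In 11 of 80 groups of arrays (10 genes) 1 array lay farther from its nearest neighbour than Dixon's criterion allows. Chance flags about 1 in 20 groups. Control replicate 2 was high for Itgal (1.22), Itgax (1.42) and Itgb7 (0.53), and low for Lama3 (3.16) and Itgav (-0.33). Control replicate 4 was high for Lamc3 (0.37). Fzd8-CRD replicate 4 was high for Lama3 (4.56) and low for Itgb1bp1 (-1.61). Fzd8-CRD replicate 2 was low for Itga2b (-0.77). It was also low for Nmrk2 (-0.40) and high for Itgam (0.21), genes that no Fzd8-CRD array had above background, so neither flag is read. The Lama3 groups were apart with these arrays included, and Lama3 still passed with any 1 array left out, with a highest adjusted p of 0.021 (limma).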

How the results depend on the processing

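The main counts were 4 genes higher and 1 lower. They were 7 and 0 without background correction, and 8 and 2 with the scanner's log ratio and with the deposited series table. Median centring and scaling between arrays each gave 1 and 0, and array weights gave 7 and 7. Slide as a random block gave 9 and 6 (consensus correlation -0.17). No slide held both groups, so that block cannot adjust their difference for slide. With the closest pairs of arrays averaged the counts were 2 and 0, where 338 of all genes passed. Cy5 alone gave 4 and 0, and the mean of a gene's probes 3 and 3. With every probe tested on its own, 5 probes were higher and 4 lower of 71. Leaving out 1 array gave 3 to 6 higher and 0 to 5 lower. Over all 18265 genes the main fit called 2619, of which 1203 were higher. That count was 2691 (1328 higher) without background correction and 2769 (1553 higher) with the scanner's log ratio. It was 2685 (1534 higher) with the series table and 3455 (1849 higher) in Cy5 alone. Median centring gave 613 (309 higher), scaling 1603 (766 higher) and averaged pairs 338 (125 higher). Array weights gave 6019 (2659 higher), the slide block 5505 (2473 higher) and the mean of a gene's probes 2617 (1119 higher). With 1 array left out it ran from 1340 (without control replicate 3) to 3092 (without control replicate 2). Quantile normalization of mean intensity leaves ratios unchanged by construction, and counting it Itgb3 passed under 24 of 24 alternatives, Lama3 under 22, Lamb1 under 20, and Itga6 and Itgb6 under 11 each. Lama3 was lost with median centring and scaling (adjusted p 0.065 to 0.074), and Lamb1 with these, Cy5 alone and averaged pairs (0.075 to 0.10). The sign of Itgb1 turned to 0.013 without background correction, 0.079 and 0.080 with the scanner's log ratio and the series table, 0.10 with median centring, 0.11 with scaling, 0.049 in Cy5, 0.12 with averaged pairs, stayed negative at -0.40 with the mean of its probes and -0.26 with array weights, and ran from -0.21 to 0.10 with 1 array left out (0.017, 0.042, 0.013 and 0.10 without Fzd8-CRD replicates 1 and 2 and control replicates 3 and 4). Lama4 turned to 0.07 in Cy5, the scanner ratio and the series table, and to 0.70 with scaling. Itga8 turned to -0.048 with an offset of 16, and Itgal to 0.36 with array weights and 0.31 without control replicate 2 (-0.62 to 0.31 with 1 array left out). Where the cause is not named, the cause was not tested. No paired analysis was possible because the labels carry no replicate numbers. Genes near background have understated differences.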
